A study of Arabidopsis thaliana with 12 samples.

Results

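AT3G16670, AT5G50335, AT5G57760, AT2G39980, AT5G62280, AT3G54040 and AT3G12710 are 7 Arabidopsis thaliana genes whose transcripts were lower in both ethylene-insensitive mutants of the series, etr1 and ein2, than in wild-type seedlings of the same age. They were chosen from those same comparisons, as probe sets paired with a single gene, and each is measured by 1 probe set. They are 7 of the 22746 probe sets on the array that are not controls, of which 13513 are paired with 1 gene. The gene table used here annotates all 7 as protein-coding and gives them no name beyond the locus code, so no function is given for them.

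Ethylene is a gaseous plant hormone that acts through inhibition. Without the gas, receptors such as ETR1 keep downstream signalling switched off. When ethylene binds, the membrane protein EIN2 passes the signal on and the transcription factor EIN3 and its relatives switch on ethylene-responsive genes. A plant with the dominant etr1-1 receptor, or without working EIN2, does not respond to the gas. ABA2 is an enzyme of the synthesis of abscisic acid (ABA), a hormone of drought and seed dormancy, and the series is about crosstalk between both hormones.

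RNA was measured on 12 single-colour ATH1 arrays, 2 per group, from plants grown on agar with 1% sucrose after a cold treatment of the seeds. Wild-type Col-0, wild-type Col-7, aba2 (given in the labels as aba2/gin1-3) and etr1 (etr1-1 in the design text) were sampled at 12 days. Wild-type Col-0 and ein2 (ein2-1 in the design text) were sampled at 14 days. Each mutant is a single allele. No label ties aba2 to one of the wild types, and nothing says whether replicates came from separate cultures, so p-values measure only the spread between these samples.

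All arrays had a trimmed mean signal between 500.038 and 500.048, with medians from 187.9 to 213.8. The spread between replicates differed: the log2 difference between the arrays of a group had a standard deviation from 0.227 in Col-0 at 14 days to 0.606 in Col-0 at 12 days. Replicate 1 of Col-0 at 12 days correlated at 0.9735 with replicate 1 of Col-7 and at 0.9112 with its own replicate, and replicate 2 of Col-0 at 0.9565 with replicate 2 of Col-7, whose own replicates correlated at 0.9462. These values are across 13648 probe sets, which are not independent. Between the Col-0 arrays at 12 days, the 7 genes had absolute log2 differences with a median of 0.181 and a maximum of 0.478. These are not the same measure as the standard deviation of 0.606. RCA, the leaf activase of Rubisco and the 1 leaf marker of 9 that could be paired, had signals from 20343 to 29107 on the 12 arrays. The 3 root markers of 11 that could be paired (EXPA7, EXPA18 and GH9C1) summed to 237.8 to 669.3. None of the 6 seed storage genes listed, nor the senescence marker SAG12, could be paired. Each of the 3 root markers was low, between 37.5 and 301.5, and EXPA7 was too low on average to be tested. The presence of root transcripts is thus not shown by them. In RNA of whole plants, fewer cells of a type and less RNA per cell cannot be told apart.

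AT3G16670 (probe set 258419_at) lost most of its signal in both ethylene mutants. Its signals were 2448 and 1744 in Col-0 at 12 days, 1227 and 1375 in Col-7, and 2426 and 2206 in aba2. In etr1 they were 194.1 and 300.9. At 14 days they were 3087 and 3004 in Col-0 and 411.0 and 270.8 in ein2. Every etr1 and ein2 array thus lay below every other array, with the lowest of the others 2.98 times the highest of these, and the etr1 and ein2 arrays overlapped each other. The mean signal left in etr1 was 11.8% of that in Col-0, and in ein2 it was 11.2% of the 14-day Col-0 mean. On the scale of log2(signal + 50), used for all log2 values here, the differences were -2.85 ± 0.239 (SE of the limma fit, n = 2 per group) and -3.01 ± 0.239.

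AT5G50335 (probe set 248509_at) had signals below 50 on all 4 etr1 and ein2 arrays. Its signals were 385.0 and 395.7 in Col-0 at 12 days, 334.7 and 533.6 in Col-7, and 835.5 and 794.3 in aba2. In etr1 they were 10.4 and 31.0. At 14 days Col-0 had 620.7 and 761.4, whereas ein2 had 0.930 and 11.7. The etr1 mean was 5.30% of the wild type and the ein2 mean 0.917%. The highest of the 4 mutant signals was below the lowest other signal by a factor of 10.8. The log2 differences were -2.65 ± 0.224 in etr1 and -3.72 ± 0.224 in ein2.

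AT5G57760 (probe set 247878_at) was likewise below 50 on those 4 arrays. It had 321.6 and 307.6 in Col-0 at 12 days, 149.1 and 284.4 in Col-7, and 156.1 and 145.2 in aba2. The etr1 signals were 3.04 and 15.5. At 14 days they were 465.6 and 437.8 in Col-0 and 28.2 and 23.0 in ein2. The mean left was 2.95% of the wild type in etr1 and 5.67% in ein2, but signals this low are not shown to be above background, so no order between the mutants is drawn from them. The log2 differences were -2.63 ± 0.228 and -2.73 ± 0.228. All 4 of these mutant signals, like those of AT5G50335, lie below the added 50, so the offset weighs heavily on their log2 differences and their shares of the wild type are approximate. With an offset of 10 in its place they were -4.15 and -3.70 for AT5G57760 and -3.79 and -5.50 for AT5G50335.

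**Figure D1:**
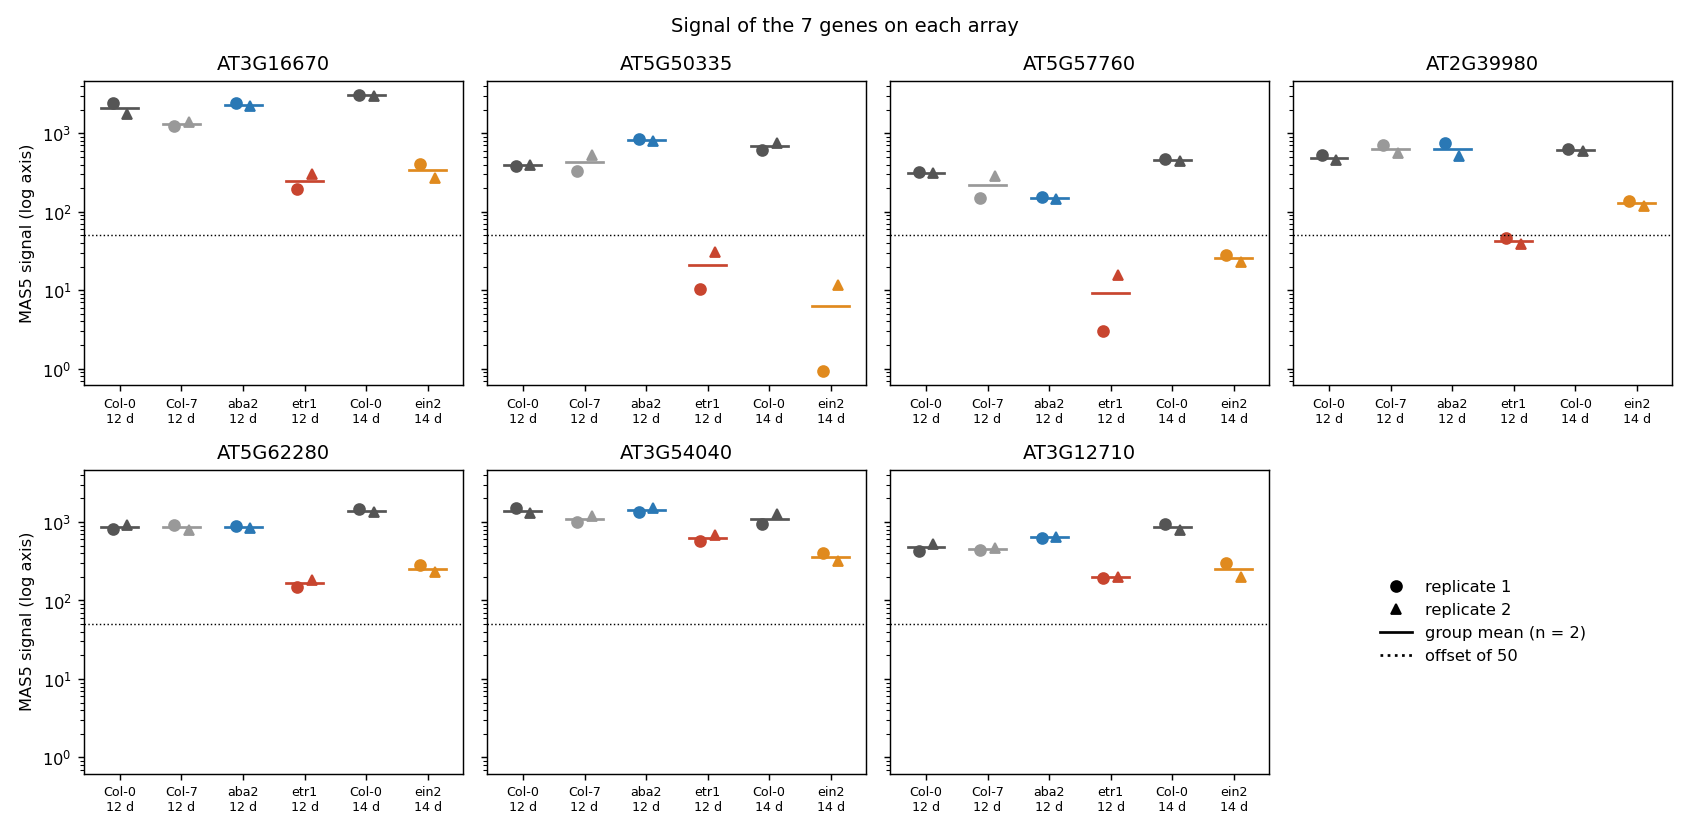
MAS5 signal (log axis) of the 7 genes on each of the 12 arrays, with circles and triangles for replicates 1 and 2, bars for the mean of 2 and a dotted line at the offset of 50. In every panel the 4 etr1 and ein2 points lie below the 8 others, and only AT5G50335 and AT5G57760 have all 4 below 50.

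AT2G39980 (probe set 267337_at) showed unequal levels in the ethylene mutants. Its signals were 521.2 and 453.8 in Col-0 at 12 days, 717.4 and 558.9 in Col-7, and 762.5 and 515.1 in aba2. They were 46.7 and 39.3 in etr1. At 14 days they were 637.0 and 586.1 in Col-0 and 139.0 and 119.7 in ein2. The share of the wild-type mean left was 8.82% in etr1 and 21.2% in ein2, with log2 differences of -2.53 ± 0.195 and -1.88 ± 0.195. Both ein2 arrays lay above both etr1 arrays, although the 2 mutants were sampled at different ages and the difference between their effects was not tested.

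AT5G62280 (probe set 247474_at) had nearly the same level in the 3 other 12-day groups. Its signals were 813.7 and 915.4 in Col-0, 925.9 and 788.9 in Col-7, and 895.7 and 841.6 in aba2, against 149.8 and 180.4 in etr1. At 14 days Col-0 had 1449 and 1350.0 and ein2 279.3 and 228.6. The shares left were 19.1% in etr1 and 18.1% in ein2, and the log2 differences were -2.09 ± 0.160 and -2.26 ± 0.160. This gene also lay nearest to the median profile of the set.

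AT3G54040 and AT3G12710 kept the most signal. AT3G54040 (probe set 251918_at) had 1494 and 1295 in Col-0 at 12 days, 988.1 and 1192 in Col-7, 1350.0 and 1529 in aba2, and 570.0 and 676.2 in etr1. At 14 days it had 942.4 and 1254 in Col-0 and 402.1 and 315.6 in ein2. None of its mutant signals was below 315.6, and 44.7% of the wild-type signal was left in etr1 and 32.7% in ein2. The log2 differences were -1.10 ± 0.196 and -1.48 ± 0.196.

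AT3G12710 (probe set 257701_at) had 428.1 and 530.6 in Col-0 at 12 days, 434.3 and 464.6 in Col-7, 621.9 and 646.9 in aba2, and 191.6 and 201.8 in etr1. At 14 days it had 948.0 and 796.1 in Col-0 and 300.0 and 197.8 in ein2. The etr1 and ein2 arrays overlapped, with 41.0% and 28.5% of the wild-type mean left. The log2 differences were -1.09 ± 0.187 and -1.64 ± 0.187.

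These falls are what chose the genes, so they are a description and no test is given for them. In the fit over all probe sets, 0.256% were called lower in etr1, 0.271% in ein2 and 0.139% in both, at a Benjamini-Hochberg adjusted p under 0.05. These shares include the 7, so nothing is read from them about the genes. The word "lost" describes AT5G50335 and AT5G57760 in both mutants, and AT2G39980 in etr1, whose signals there were below 50. Detection calls were not used, so signals this low are not shown to be zero. The other 4 were reduced, not lost. The sum of the 3 root markers was 293.2 and 316.5 in etr1 against 329.7 and 245.7 in Col-0 at 12 days. Its markers went different ways there. EXPA7 was higher on both etr1 arrays (100.6 and 116.4 against 77.7 and 59.0) and GH9C1 lower (98.1 and 83.6 against 105.2 and 105.8). EXPA18 overlapped. The sum was 529.9 and 315.1 in ein2 against 574.8 and 669.3 in Col-0 at 14 days, lower on both ein2 arrays, and its part in the ein2 values was not tested. For 7 of 7 genes all 4 etr1 and ein2 arrays were below the 8 others, which held for 1.23% of all probe sets and which the choice of genes nearly fixes. The lowest of the other arrays was 10.8 times the highest of these for AT5G50335, but only 1.43 times for AT3G12710 and 1.39 times for AT3G54040.

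**Figure D2:**
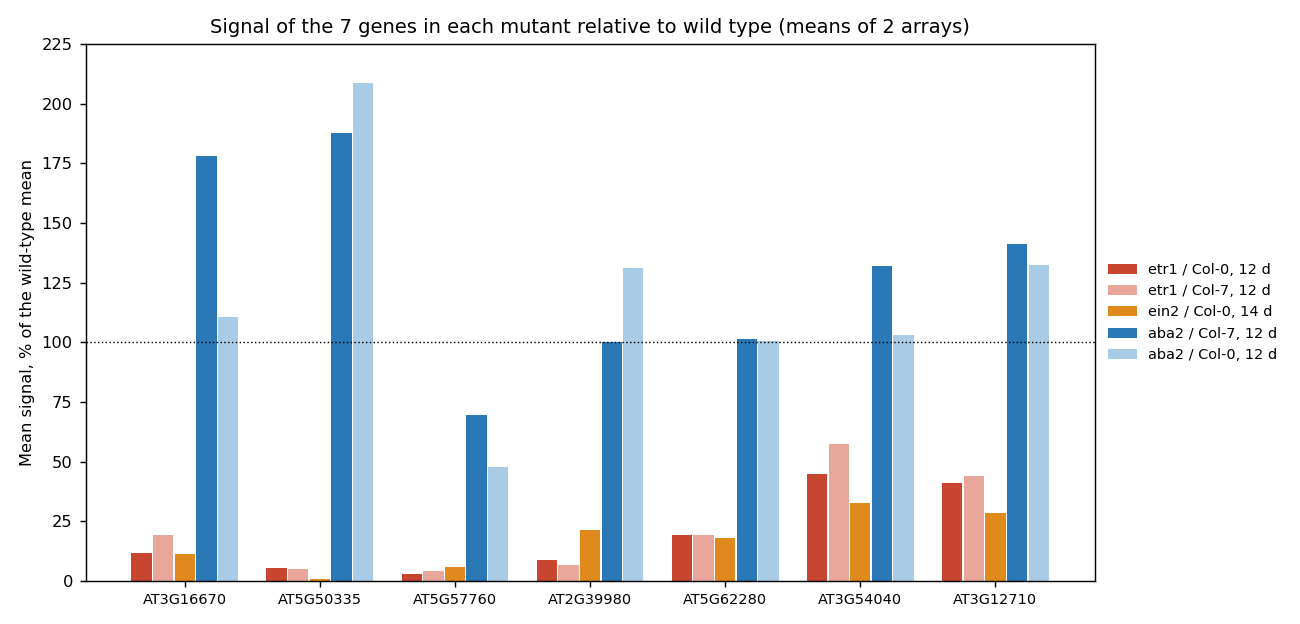
Mean signal in each mutant as a percent of the mean in a wild type of its age (means of 2 arrays, no offset; dotted line, 100%). The etr1 and ein2 bars run from 0.917% (AT5G50335 in ein2) to 57.2% (AT3G54040 in etr1 against Col-7), and the aba2 bars from 47.9% to 208.8%.

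The Col-7 arrays did not choose the genes and give a second wild type for etr1, although the etr1 arrays themselves did. Against Col-7, all 7 genes were again lower in etr1 with no overlap of arrays, where 20.6% of all probe sets were lower without overlap. The log2 differences ran from -0.76 for AT3G54040 to -2.88 for AT2G39980, with a median of -2.13 against 0.03 over all probe sets. Relative to Col-7, etr1 kept 57.2% of the AT3G54040 signal, 43.8% of AT3G12710, 19.3% of AT5G62280 and 19.0% of AT3G16670. The remaining 3 kept 6.73% (AT2G39980), 4.77% (AT5G50335) and 4.29% (AT5G57760). The choice of wild type changed AT3G16670 most in level: its Col-7 mean was 62.1% of its Col-0 mean and the arrays did not overlap.

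Comparing aba2 with Col-7 asked whether impaired ABA synthesis moved the same genes, and it is the only comparison of the series none of whose arrays chose them. Its test, however, takes the spread from all 12 arrays, those that chose the genes included. The p-values and intervals below are thus not free of that choice. None of the 7 passed in limma's two-sided test (0 of 7, against 0.454% of all probe sets called and 12.3% with an unadjusted p under 0.05). At an unadjusted p under 0.05 there were 3 of 7, the genes given next. AT5G50335 had the largest difference, a mean of 814.9 in aba2 against 434.2 in Col-7, 1.88 times the signal (log2 difference 0.87, 95% interval 0.37 to 1.36, limma adjusted p = 0.144). Both aba2 arrays were above both Col-7 arrays. AT3G16670 had 2316 against 1301, 1.78 times the signal (0.81, interval 0.28 to 1.34, limma adjusted p = 0.202), again without overlap. AT3G12710 had 634.4 against 449.5 (0.45, interval 0.04 to 0.87, limma adjusted p = 0.353). Fitted on the 4 aba2 and Col-7 arrays alone, the limma adjusted p was 0.311 for AT5G50335, 0.253 for AT3G16670 and 0.492 for AT3G12710.

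The other 4 were nearer to zero. AT3G54040 was at 0.39 (interval -0.05 to 0.82, limma adjusted p = 0.454), with aba2 above Col-7 on both arrays. AT5G62280 was at 0.02 (-0.33 to 0.38) and AT2G39980 at -0.01 (-0.45 to 0.42), with adjusted p = 0.97 and 0.987 by limma. AT5G57760 was at -0.36 (-0.87 to 0.14, limma adjusted p = 0.549), with overlapping arrays. In all, 5 of 7 were higher in aba2 and 4 of 7 without overlap, where 20.4% of all probe sets were higher without overlap, and the median was 0.39 against 0.00 over all probe sets.

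**Figure D3:**
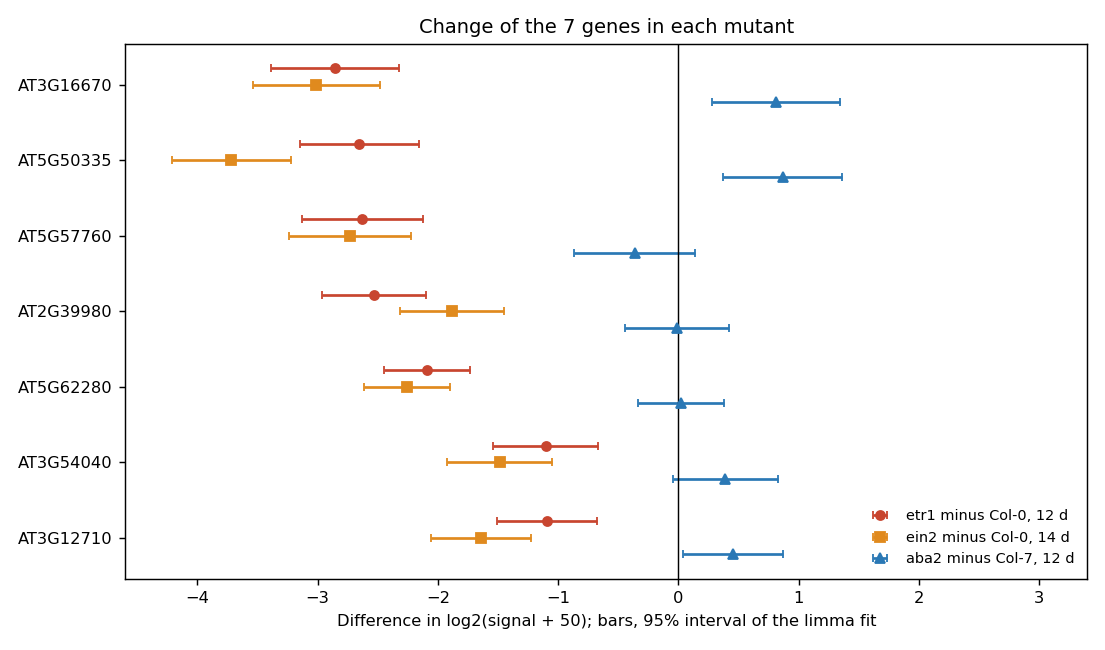
Difference in log2(signal + 50) of the 7 genes in etr1 and ein2 against Col-0 of their age and in aba2 against Col-7, with 95% intervals of the limma fit (n = 2 per group). The etr1 and ein2 values chose the genes and lie between -1.09 and -3.72, and the aba2 values lie between -0.36 and 0.87.

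With Col-0 as the 12-day control, whose arrays did choose the genes, the aba2 values shifted for some. AT5G50335 was at 0.97, again without overlap, whereas AT3G16670 was at 0.16 with overlapping arrays. AT5G57760 was at -0.86, with 47.9% of the Col-0 signal and no overlap. AT3G12710 (0.38), AT2G39980 (0.34), AT3G54040 (0.04) and AT5G62280 (0.01) had differences no larger than 0.38. Against both wild types, then, AT5G50335 had the highest aba2 values of the 7 and AT5G57760 the lowest. No test is given for the Col-0 values.

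Between 12 and 14 days in Col-0, 6 of the 7 had higher means at the later age and AT3G54040 a lower one, with no overlap of arrays for any of the 7. Over all probe sets 24.5% were higher and 23.2% lower without overlap. These 4 arrays were among those that chose the genes, so the values are a description. AT3G12710 had 1.82 times its 12-day signal (log2 difference 0.80), AT5G50335 1.77 times (0.74) and AT5G62280 1.62 times (0.67). AT3G16670 (0.55), AT5G57760 (0.46) and AT2G39980 (0.30) differed less, and AT3G54040 was at 78.8% of its 12-day signal (-0.34). The wild-type level that ein2 was measured against was thus higher for 6 of the 7 than the one used for etr1.

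Ordered by group mean, etr1 and ein2 were the 2 lowest groups for all 7 genes. The choice of genes nearly fixes this, although it used no Col-7 or aba2 array. The lowest mean was that of etr1 for 5 genes and that of ein2 for AT5G50335 and AT3G54040. For AT3G16670, AT5G50335 and AT3G12710 the arrays of these 2 groups overlapped, and for AT5G57760 both lie too low to be ordered. At the top stood Col-0 at 14 days for AT3G16670, AT5G57760, AT5G62280 and AT3G12710, and aba2 for AT5G50335, AT2G39980 and AT3G54040. AT5G62280 did not separate aba2, Col-0 and Col-7 at 12 days, nor AT2G39980 aba2, Col-7 and 14-day Col-0, since neighbours in those orders overlapped, and the aba2 arrays of AT2G39980 also overlapped those of Col-0 at 12 days. For AT3G54040, aba2 overlapped Col-0 at 12 days and Col-7 overlapped Col-0 at 14 days. AT3G16670 (aba2 and 12-day Col-0), AT5G50335 and AT3G12710 (the 12-day wild types) had 1 overlapping pair each among their 4 higher groups. For AT5G57760 the order was Col-0 at 14 days, Col-0 at 12 days, Col-7 and aba2, followed by both ethylene mutants, and of the 4 higher groups only Col-7 and aba2 overlapped.

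To compare the genes over the 6 groups, each gene's 6 group means were centred on their own mean, and profiles were compared by the root mean square distance over the 6 groups, in log2 units. AT5G62280 lay 0.0924 from the median profile of the set, AT2G39980 0.284, AT5G57760 0.288 and AT3G16670 0.312. AT3G12710 (0.451), AT3G54040 (0.608) and AT5G50335 (0.634) lay farthest. On this centred scale the median profile stood at -1.66 in etr1, -1.23 in ein2 and 0.64 in aba2. AT3G12710 stood at -0.96 in etr1 and -0.70 in ein2, and AT3G54040 at -0.51 in etr1 and, like the median, -1.23 in ein2. AT5G50335 stood at -2.34 in ein2 and 1.61 in aba2, where AT5G57760 was the lowest of the 7 at 0.10.

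Among 7258 other tested probe sets paired with 1 gene, the organ size gene ARL (ARGOS-LIKE) had the profile most like the median, at a distance of 0.32. ARL was also the nearest to 4 of the 7 taken singly: AT3G12710 (0.167), AT5G62280 (0.269), AT5G57760 (0.442) and AT3G16670 (0.554). AT4G10910 came second for the set (0.389) and was the nearest to AT2G39980 (0.406). IAGLU, an auxin glucosyltransferase gene, was next (0.431), followed by AT5G22580 (0.495), AT5G01210 (0.534) and AT5G44580 (0.561). AT3G54040 had AT5G15780 as its nearest gene (0.183). The nearest to AT5G50335 was CYP71B22, a cytochrome P450, at the wider distance of 0.8. These distances rest in part on the comparisons that chose the 7 genes. ARL and IAGLU were themselves called lower in both mutants. Of the 19 probe sets so called, they were the only 2 besides the 7 that were paired with 1 gene. Their closeness is thus no independent finding.

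**Figure D4:**
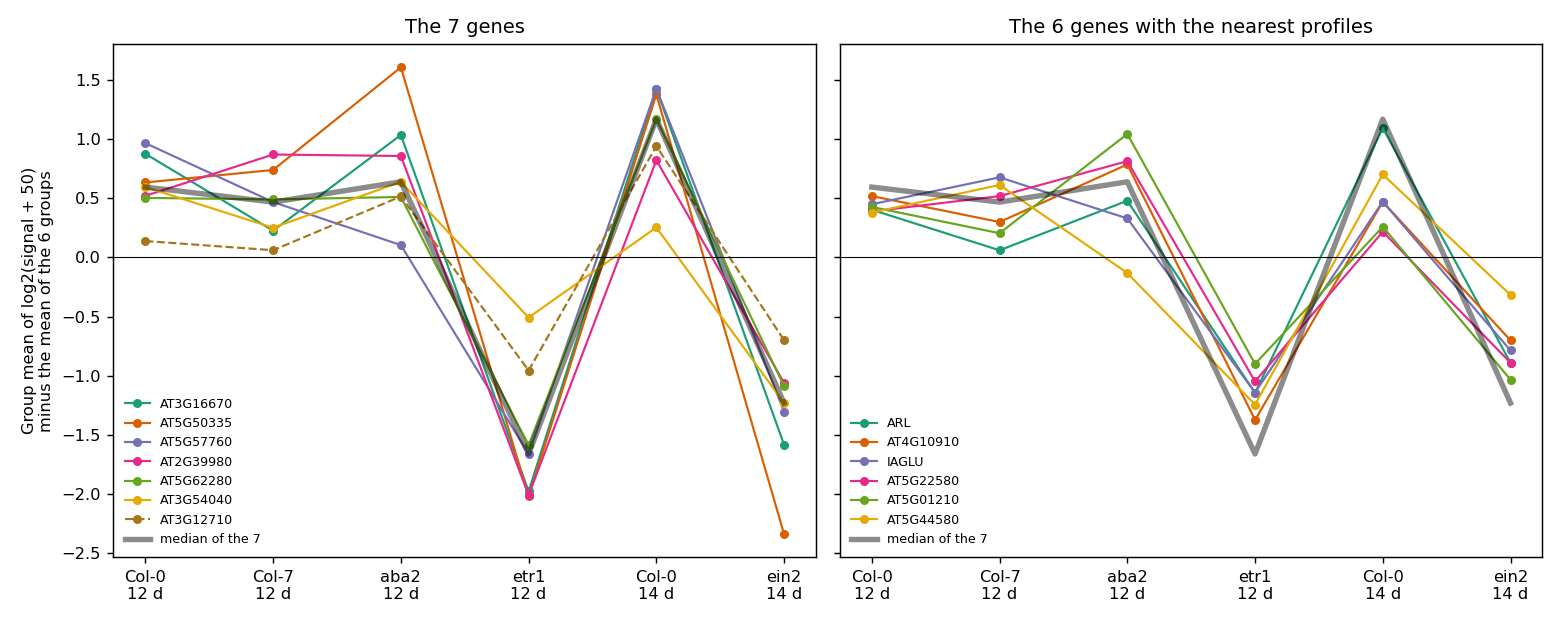
Group means of log2(signal + 50) minus each gene's mean over the 6 groups, for the 7 genes (left) and the 6 other genes with the nearest profiles (right), with their median as a thick grey line. The 7 dip in etr1 (median -1.66) and ein2 (-1.23), AT5G50335 deepest in ein2 (-2.34), and AT3G54040 least in etr1 (-0.51).

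A list of ethylene genes was drawn up with earlier results of these data known, so its calls are no independent test. Of 52 genes listed for ethylene synthesis, perception, signalling and response, 7 were paired with a tested probe set. Of these, 1 passed as lower in etr1, where 0.256% of all probe sets did, and 1 in ein2, where 0.271% did. In both mutants this was ARL, at -1.55 ± 0.197 and -1.99 ± 0.197 (limma adjusted p = 0.0103 and 0.00173), which did not pass in etr1 without either etr1 array (0.103 and 0.122). None passed as higher in either mutant, where 0.205% of all probe sets did in etr1 and 0.103% in ein2; at an unadjusted p under 0.05 there were 2 of 7 in each, ARL and RTE1, both lower, where 9.76% of all probe sets in etr1 and 5.37% in ein2 had one in either direction. RTE1, a regulator of the receptor ETR1, was at -0.74 ± 0.169 and -0.54 ± 0.169 (limma adjusted p = 0.119 and 0.463); without Col-0 replicate 1 it passed in etr1 (0.0387). EIN3, the transcription factor downstream of EIN2, was at -0.16 in etr1 and -0.08 in ein2, and the F-box gene ETP2, whose protein targets EIN2 for degradation, at -0.20 and 0.04. PDF1.2, a defensin gene, was at -1.0 ± 0.713 in etr1, a value that ran from -1.80 to -0.20 when single arrays were left out, and its relative PDF1.2b was at -0.41 ± 0.830. At 14 days all 8 signals of this pair in Col-0 and ein2 were below 122.3, the mean signal a probe set needed to be tested, so their ein2 differences are not read as changes. The median of the list was -0.41 in etr1 and -0.15 in ein2, against 0.01 and 0.00 over all probe sets. Without this pair, left out after its signals were seen, it was -0.31 and -0.08. In aba2 none of the 7 listed genes passed by limma, and 1 had an unadjusted p under 0.05. This was ACO3, a homologue of the enzymes of the last step of ethylene synthesis, with 648.3 and 872.9 in aba2 against 181.4 and 473.2 in Col-7 (1.21 ± 0.352, limma adjusted p = 0.196; 0.0485 without Col-7 replicate 2).

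Of the 7 genes, 1 lies on chromosome 2, 3 on chromosome 3 and 3 on chromosome 5, and no 2 of them are adjacent. Of the 14 genes next to them in the RefSeq order of assembly TAIR10.1, 7 could be paired and 4 were bright enough to test. None of these 4 passed in etr1, ein2 or aba2 by limma (0 of 12 tests at an unadjusted p under 0.05), and none had an etr1 or ein2 difference beyond 0.35 in size. AT3G16660, beside AT3G16670, was at 0.34 and -0.32. AT5G50340, beside AT5G50335, was at -0.12 and 0.04. AT5G62290, beside AT5G62280, was at 0.16 and 0.05. The gene models of AT5G57760, AT2G39980 and AT3G54040 each overlap that of a neighbour (AT5G57770, AT2G39975 and BSK6) in that annotation, and none of these 3 neighbours could be tested.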

How the data were processed

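The deposited values are MAS5 signal intensity per probe set on a linear scale, made by the authors with Affymetrix Microarray Suite 5.0 per the labels and the design text and already scaled to a common trimmed mean; detection calls were not used here. All 12 columns were used. The 64 control probe sets were left out. An offset of 50 was added, log2 was taken, and probe sets with a mean signal under the 40th percentile (122.3) were left out, which left 13648, all 7 genes among them. Genes were named from the platform annotation (13513 probe sets with 1 gene, 503 with several, 8730 unnamed here; 13436 found in RefSeq, TAIR10.1).

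Group means were fitted with limma 3.58.1 in R 4.3.3 to all 12 arrays (6 residual and 4.35 prior degrees of freedom, eBayes with trend), tested two-sided, with p-values adjusted by Benjamini-Hochberg over the 13648 probe sets and a threshold of 0.05. Because 1 spread serves all 6 groups, over all probe sets it tends to be too large for the closer replicates of etr1, ein2 and Col-0 at 14 days. It tends to be too small for Col-0 at 12 days and for Col-7, the control in the aba2 test. This order did not hold for the 7 genes. Their median absolute replicate difference was 0.278 in ein2, 0.259 in Col-7, 0.228 in etr1 and 0.181 in Col-0 at 12 days. In Col-0 at 14 days it was 0.111 and in aba2 0.0849. Their standard errors in etr1 and ein2 are thus not shown to be too large. The precision is limited by 2 arrays per group: an exact permutation test of 2 against 2 cannot go below p = 0.333. The genes, the ethylene list and the organ markers were chosen with earlier results of these data known. Genes named are the 7, the paired members of the ethylene list, and the 6 nearest profiles plus the 1 nearest to each gene. The fit was tested on simulated data. Alternatives were offsets of 10 and 150, quantile normalization, other filters, no trend, the replicate number as a block, 4 arrays alone and leaving out each array. No sequence of these genes was used here.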

Additional observations from a re-analysis of the deposited data

How the results depend on the processing

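The members called in aba2 stayed at 0 of 7 under every alternative run by limma, while all probe sets called went from 62 to 41 with a filter at the 60th percentile (fewer probe sets tested), 7 with the 4 arrays alone, and 4 to 58 with 1 array left out (4 without either aba2 array). The adjusted p ranged from 0.0718 to 0.519 for AT5G50335 and from 0.16 to 0.589 for AT3G16670. The median of the 7 genes in aba2 was 0.159 against Col-0 in place of Col-7. In etr1 the median was -3.04 with an offset of 10, -1.67 with an offset of 150, -2.31 with the stricter filter (which drops AT5G57760) and -2.13 against Col-7, and in ein2 it was -1.78 with an offset of 150. No gene changed sign in etr1 or ein2, which the choice of genes nearly fixes, since no mutant arrays overlapped those of Col-0 of the same age. Without single arrays the medians ran from -2.62 to -2.44 in etr1, -2.38 to -2.14 in ein2 and 0.259 to 0.499 in aba2. The ethylene list had 0 called lower in etr1 with the 4 arrays alone (limma; ARL at an adjusted p of 0.357) and 0 to 2 with 1 array left out, 0 without either etr1 array. In aba2 it had 0 to 1 called higher.

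Some differences changed sign in at least 1 alternative, not all of them near 0: AT5G62280 in aba2 was -0.0026 under quantile normalization and ran from -0.088 to 0.13 without single arrays, AT2G39980 from -0.275 to 0.249 and AT5G57760 from -0.738 to 0.0109. On the list, in etr1, PDF1.2b ran from -1.49 to 0.662, ACO3 from -0.717 to 0.0892 and EIN3 from -0.447 to 0.122. In ein2 EIN3 ran from -0.209 to 0.0468, ACO3 from -0.0773 to 0.138, PDF1.2 from -0.617 to 0.317 and ETP2 from -0.0128 to 0.0982. In aba2 PDF1.2, at -0.987 with all arrays, ran from -2.01 to 0.0402, RTE1 from -0.0518 to 0.145 and ETP2 from -0.0226 to 0.388. The labels link samples across groups by no more than a replicate number. The replicate differences correlated at -0.0177 between etr1 and Col-0, -0.0724 between ein2 and Col-0, 0.341 between aba2 and Col-7 and 0.542 between Col-7 and Col-0 at 12 days, so same-numbered arrays deviated together in the last 2 of these pairs and not in the first 2. With the number as a replicate block, 75 probe sets and 0 of the 7 genes passed in aba2 by limma. No difference moved, which the design fixes, since each group holds 1 array of each number. AT5G50335 had a limma adjusted p of 0.0741, and no call changed among the 7 genes and the ethylene list. Unless an array or filter is named, the cause of a shift was not tested.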
